A study of Mus musculus with 36 samples.

Results

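The contacts of 4 gene loci in wild-type cells were compared between embryonic stem cells (ES) at day 0 and embryoid bodies (EB) at day 6. The comparison took every library labelled wild type in the contact assay, 16 of the 36 samples of the series, at the loci of Foxa2, Gata4, Gata6 and T. The assay, UMI-4C, ligates chromatin so that neighbouring DNA fragments are joined, sequences the partners of 1 bait fragment per locus (the viewpoint) and counts them by molecular identifiers. Wild type (WT) here means Whsc1+/+, and the series sets these cells beside Whsc1-/- cells (KO), which were used only where named. Embryoid bodies were made from ES cells as hanging drops in a serum medium and then kept in suspension, per the labels' protocols. For ES the protocols describe 2 media, one with serum and one with inhibitors and leukaemia inhibitory factor, and do not say which the contact libraries came from. The labels name no ES line, clone or strain, and give no cell types within the EB.

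The 2 libraries of each stage and viewpoint share 1 deposited column, so the 16 libraries give 8 columns and no replicate values. The columns hold contact scores made by the authors, which take both signs and fall with distance. Every value below is therefore a score, or a difference of scores, between single pooled profiles, with no error, no test and no p-value. A difference of 0.5 score units was used as a rule of size, and "higher" and "lower" describe these profiles only. The read depth is unknown.

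Foxa2, a forkhead factor, and Gata4 and Gata6, zinc-finger factors, act in endoderm, and the GATA pair also in the heart. T (Brachyury) is the T-box factor of early mesoderm. Such genes are mostly low in ES cells and are switched on as the germ layers form. Their regulatory elements often lie far from the gene, and contact between such an element and a promoter can differ between cell states.

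The viewpoint of Foxa2 lies at position 148046914 of chromosome 2 (mm10), 55 bases inside the gene from its outermost RefSeq start. That of T lies at 8433756 of chromosome 17, 667 bases before the RefSeq start of T. The viewpoints of Gata4 (chromosome 14, 63245606) and Gata6 (chromosome 18, 11053621) lie inside their gene spans, 46692 and 1111 bases from the lower end. Foxa2 is transcribed towards lower coordinates and T towards higher ones. The lower side of a viewpoint is thus downstream of Foxa2 and upstream of T, and for Gata4 and Gata6 sides are named by coordinate only.

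The listed positions could be read from sequence. UMI-4C commonly cuts chromatin at GATC with the enzyme DpnII, which the labels do not name. RefSeq promoter windows (250 bases before to 50 after a start, GRCm38.p6, the assembly family of mm10) hold 7 different stretches within the tables that run from one GATC to the next. For 7 of the 7 the midpoint is a listed position, within 1 base. Of these, 6 lie at Foxa2 and 1 at Gata4, and none at Gata6 or T could be checked. At those 7 the listed positions mark fragment midpoints, but the smoothing of the score is not known. The median spacing between positions was 328 to 338 bases. Of 32851 mouse promoter windows of 300 bases, 48% hold a GATC, which reads the same on both strands. The first sequence below shows the fragments best. It is a start of 9030622O22Rik, a long non-coding RNA beside Foxa2, whose 4 GATC sites bound 3 fragments that are listed in the table. The next pair are the promoters of Foxa2 and T, the viewpoint genes with an entry, each with 1 site. The last pair are starts upstream of T whose contacts were lower in EB: that of Gm33799 holds 1 site and that of Mpc1 none, so the fragment there reaches past the window. GATC is in capitals.

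9030622O22Rik (chr2:148040323-148040622, minus strand): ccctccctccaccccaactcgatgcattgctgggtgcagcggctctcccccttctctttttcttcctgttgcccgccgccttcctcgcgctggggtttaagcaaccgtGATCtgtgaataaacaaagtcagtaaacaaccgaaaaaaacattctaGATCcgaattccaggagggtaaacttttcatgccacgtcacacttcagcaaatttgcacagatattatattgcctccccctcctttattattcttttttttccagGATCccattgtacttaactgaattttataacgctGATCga
Foxa2 (chr2:148046920-148047219, minus strand): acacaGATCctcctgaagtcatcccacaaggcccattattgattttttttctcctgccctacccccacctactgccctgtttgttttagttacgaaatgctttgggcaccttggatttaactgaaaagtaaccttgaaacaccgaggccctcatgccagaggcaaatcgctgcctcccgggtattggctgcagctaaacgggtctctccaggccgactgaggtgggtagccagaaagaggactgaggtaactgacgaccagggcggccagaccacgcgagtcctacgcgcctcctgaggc
T (chr17:8434173-8434472, plus strand): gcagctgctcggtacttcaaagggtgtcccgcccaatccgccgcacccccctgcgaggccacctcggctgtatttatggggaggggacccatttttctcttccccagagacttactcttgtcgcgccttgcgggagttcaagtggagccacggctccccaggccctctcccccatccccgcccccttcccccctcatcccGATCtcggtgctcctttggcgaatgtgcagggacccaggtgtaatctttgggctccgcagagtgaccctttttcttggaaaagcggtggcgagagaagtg
Mpc1 (chr17:8283537-8283836, plus strand): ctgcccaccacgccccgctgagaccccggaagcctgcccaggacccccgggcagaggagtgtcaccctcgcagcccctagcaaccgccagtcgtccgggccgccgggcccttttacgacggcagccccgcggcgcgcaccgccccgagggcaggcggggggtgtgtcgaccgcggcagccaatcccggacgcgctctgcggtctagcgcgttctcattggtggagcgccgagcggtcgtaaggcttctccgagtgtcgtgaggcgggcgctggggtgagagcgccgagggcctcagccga
Gm33799 (chr17:8272468-8272767, minus strand): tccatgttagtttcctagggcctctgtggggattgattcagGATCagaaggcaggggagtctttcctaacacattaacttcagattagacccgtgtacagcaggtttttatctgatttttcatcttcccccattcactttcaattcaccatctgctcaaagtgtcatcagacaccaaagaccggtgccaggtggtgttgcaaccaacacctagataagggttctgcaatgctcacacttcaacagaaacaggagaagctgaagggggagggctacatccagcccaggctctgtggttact

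Of 4314 listed positions, 4280 had a finite score in both WT columns (Foxa2 1077, Gata4 1085, Gata6 1070 and T 1048). Left out were 24 positions less than 3 kb from their viewpoint, whose scores are infinite, and 10 without WT scores at the lower outer end of Gata6. The usable positions include 150 that lack a KO score. Positions were averaged in windows of 10 kb counted outward from the viewpoint, leaving out the first 10 kb and requiring 10 positions, which gave 167 windows.

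The 4 loci differed in how far ES and EB stood apart. Of the 167 windows, 29 (17.4%) had a stage difference of 0.5 or more, 15 higher in EB (8.98%) and 14 lower (8.38%). Gata6 held 17 of them among 41 windows (41.5%), T 10 of 42 (23.8%), Foxa2 2 of 42 (4.76%) and Gata4 0 of 42 (0%). By single positions, 15% of the 4280 reached that size, 8.11% higher and 6.87% lower in EB. The mean absolute difference per window followed the same order, with 0.47 for Gata6, 0.35 for T, 0.22 for Foxa2 and 0.11 for Gata4. Across the windows of a locus, which are not independent replicates and share the fall with distance, the ES and EB scores had a Spearman correlation of 0.97 at Gata4, 0.94 at Foxa2, 0.78 at Gata6 and 0.65 at T. So the order of the windows was kept most at Gata4 and least at T, though Gata6 had the greater differences. Removing the median difference of each locus (centring) gave 21 higher and 6 lower windows in place of 15 and 14, as Gata6 then had 14 higher and 1 lower and T 5 and 5.

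**Figure D1:**
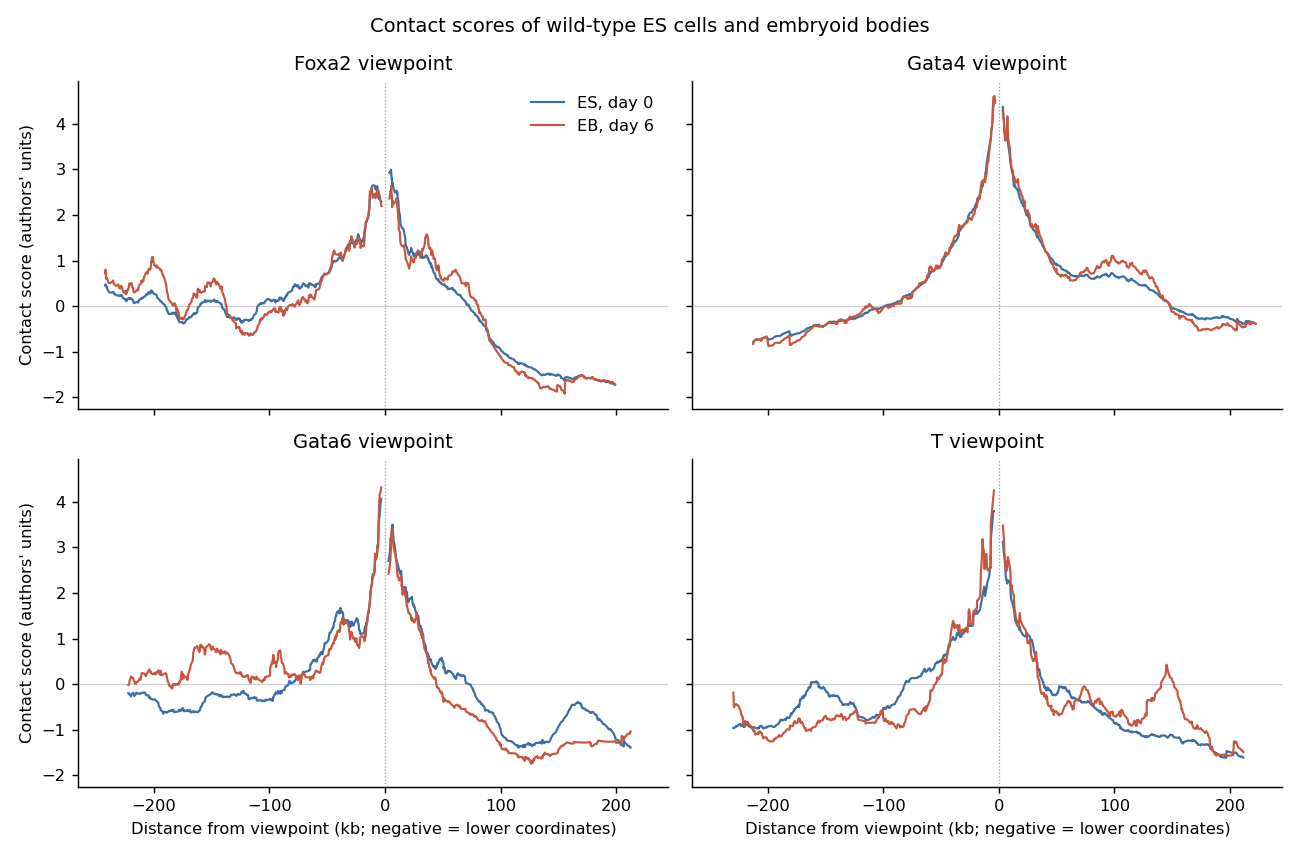
Contact score (vertical axis, authors' units) of each listed position against its distance from the viewpoint (horizontal axis, kb), in wild-type ES (blue) and EB (red), 1 panel per viewpoint. The curves of Gata4 nearly overlie each other. At Gata6 EB lies above ES beyond 80 kb on the lower side, and below it at most positions from 10 to 200 kb on the higher side.

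With the loci pooled, differences were smaller near the viewpoints. Over all loci, 6.25% of the 32 windows from 10 to 50 kb reached 0.5, against 17.5% of 40 windows from 50 to 100 kb, 12.5% of 40 from 100 to 150 kb and 32.5% of 40 from 150 to 200 kb. The mean absolute difference was 0.17, 0.30, 0.32 and 0.37 in those bands. From 200 kb outward it was 0.20 over 15 windows, of which 13.3% reached 0.5. Not every side followed this. On the higher side of Foxa2 it was 0.25 from 10 to 50 kb and 0.054 from 150 to 200 kb. On the lower side of Gata4 it was 0.056 from 10 to 50 kb and 0.041 from 50 to 100 kb.

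Gata6 showed an exchange between its sides. On the lower side the 21 windows had a mean score of 0.097 in ES and 0.48 in EB, and on the higher side the 20 windows had -0.34 in ES and -0.74 in EB. All 9 windows that reached 0.5 upward in EB (22% of its windows) lay on the lower side, and all 8 that reached it downward (19.5%) lay on the higher side. In ES, 14 of the 21 lower-side windows had a score below 0, from 80 kb outward. In EB 0 of 21 did, and the lowest was 0.0035, at 180 to 190 kb. The higher-side profile first passed below 0 in the window that begins at 70 kb in ES and at 40 kb in EB. Over the 20 pairs of windows at equal distance, the lower side exceeded the other by 0.45 in ES and by 1.24 in EB, and the stage difference was the greater on the lower side in 18 pairs.

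The fall with distance on the lower side of Gata6 was also less steep in EB. Its slope per 10-fold distance was -2.11 in ES and -0.93 in EB, a difference of 1.17, while on the higher side the slopes were -2.94 and -3.09. From 10 to 50 kb on the lower side the mean score was 1.40 in ES and 1.17 in EB, but after centring this difference of -0.23 was -0.0053, with windows from -0.15 to 0.16. From 70 kb outward each lower-side window was higher in EB, by 0.016 to 1.22. At 70 to 80 kb ES had 0.15 and EB 0.17, a difference that centring raised to 0.25.

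Position by position, scores on the lower side of Gata6 were higher in EB by at least 0.5 along 3 unbroken runs. The longest ran 54.3 kb (chromosome 18, 10869727 to 10924038), over 124 positions, with a mean of -0.44 in ES and 0.47 in EB. The long non-coding RNA Gm35814 covers part of it. Its greatest difference was 1.46, at 162.4 kb, where the score was -0.62 in ES and 0.84 in EB. The nearest run, 15.2 kb long (10951142 to 10966358), lies within Gm35814 and had means of -0.24 and 0.51. The farthest, 19.4 kb long (10849008 to 10868426), holds the pseudogene Gm18764 and had -0.48 and 0.19.

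On the higher side of Gata6, EB was lower by at least 0.5 along 2 runs with no annotated gene. The nearer ran 32.6 kb (11098850 to 11131442) beyond the end of Gata6, with means of 0.23 in ES and -0.43 in EB. The other ran 35.3 kb (11202090 to 11237348), with -0.63 and -1.32, and its greatest difference was -0.88, at 167.2 kb. After centring, 1 of the 8 windows was still lower by 0.5, at 160 to 170 kb, with -0.60 in place of -0.83. The window at 50 to 60 kb had -0.46 in place of -0.69.

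T showed the opposite exchange, but only from 70 to 210 kb. Over all distances, 4 of its windows reached 0.5 upward in EB (9.52%) and 6 downward (14.3%). Of the 4, 1 lay on the lower side, at 10 to 20 kb. Its lower side, upstream of the gene, had a mean of -0.11 in ES and -0.38 in EB over 22 windows. Its higher side, downstream, had -0.65 and -0.44 over 20. The lower side exceeded the higher one by 0.62 in ES and by 0.10 in EB. In 14 of 20 pairs of windows at equal distance the lower side was lower and the higher side higher in EB, and in 2 pairs the reverse. At Gata6 the counts were 0 and 13. The 14 pairs of T all lay from 70 to 210 kb, while from 20 to 70 kb its higher side was lower in EB, by 0.13 to 0.48. Per 10-fold distance the slope was -2.29 in ES and -2.71 in EB on the lower side of T, and -2.61 and -1.97 on the higher side.

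Upstream of T, 2 runs were lower in EB. One ran 29.7 kb (chromosome 17, 8344459 to 8374155), over Gm46592 and the far part of T2, a gene next to T, with means of 0.084 in ES and -0.68 in EB. The other ran 24.7 kb (8261910 to 8286590), over the non-coding Gm33799, the pseudogene Gm8465 and the start of Mpc1, with -0.11 and -0.87. Its greatest difference was -1.06, at 162.6 kb, from 0.037 in ES to -1.02 in EB. A short run close to T went the other way: along 3.11 kb at 12.7 to 15.8 kb (8417920 to 8421026), within T2, the mean was 1.93 in ES and 2.81 in EB. Its greatest difference was 1.24, so within the span of T2 the positions ran from -0.88 to 1.24.

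Downstream of T, 1 run was higher in EB, 32.4 kb long (8561717 to 8594090) and within the span of Pde10a, which encodes a cyclic nucleotide phosphodiesterase. Its mean was -1.16 in ES and -0.19 in EB. At 144.9 kb the score was -1.16 in ES and 0.43 in EB, and this difference of 1.58 was the greatest at any of the 4280 positions. A run of 3.70 kb at 51.7 to 55.4 kb (8485432 to 8489130) was lower in EB, with -0.073 and -0.65.

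**Figure D2:**
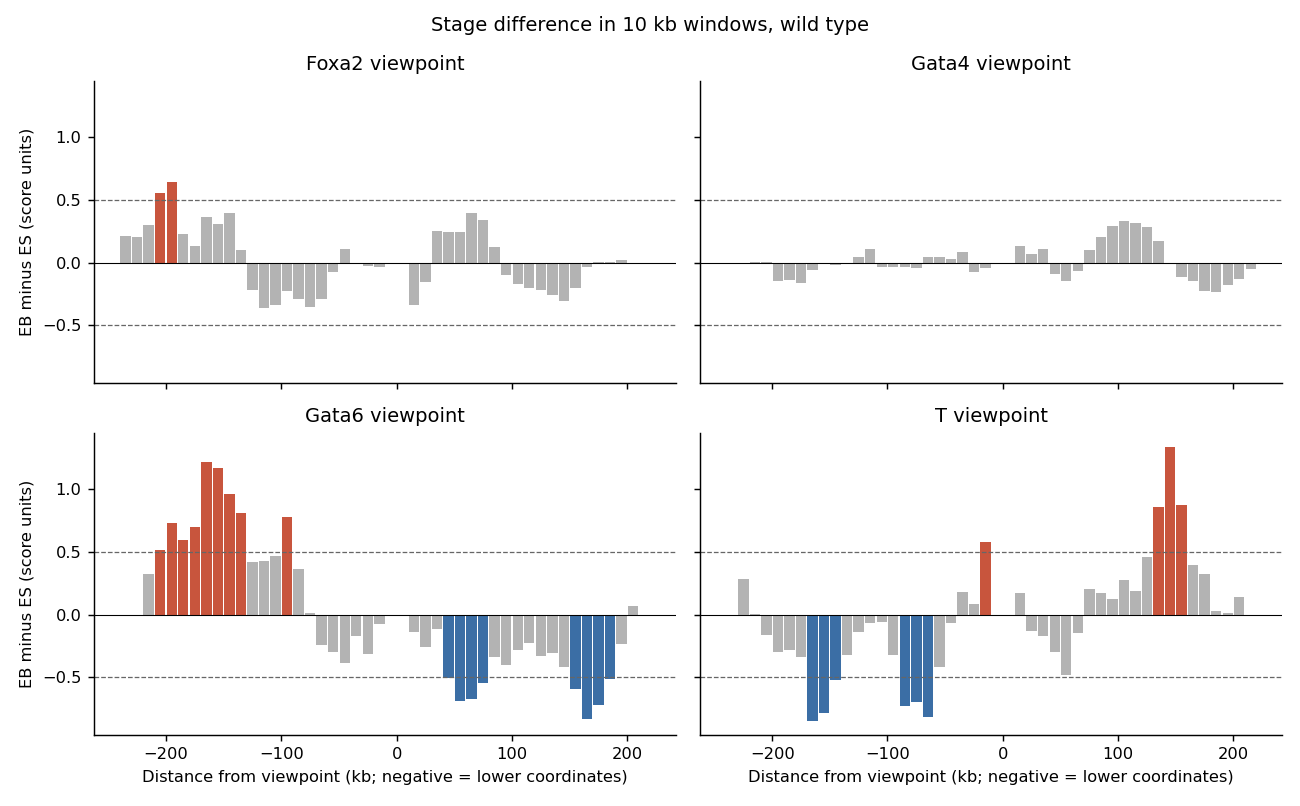
EB minus ES (vertical axis, score units) in 10 kb windows by distance from the viewpoint (horizontal axis, kb), wild type. Red and blue bars reach 0.5 in either direction (dashed lines): 9 and 8 windows at Gata6, 4 and 6 at T, 2 and 0 at Foxa2, and 0 at Gata4.

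At Foxa2 the difference alternated along the chromosome. On the lower side, which is downstream, EB was lower by 0.25 on average from 50 to 100 kb, in the body of 9030622O22Rik, and higher by 0.33 from 150 to 200 kb. On the higher side the window at 10 to 20 kb had 1.85 in ES and 1.51 in EB, and the window at 60 to 70 kb had 0.23 and 0.63. The only run of at least 0.5 was 14.8 kb long (chromosome 2, 147842584 to 147857380), 189.5 to 204.3 kb downstream and without an annotated gene. Its mean was 0.22 in ES and 0.85 in EB, with a greatest difference of 0.77 at 201.0 kb. The lower side exceeded the higher one by 0.89 in ES and by 0.91 in EB, so the sides kept their balance. Farther out, on the higher side, 94 positions from 161.9 to 199.0 kb have WT scores but no KO score. There EB minus ES lay between -0.068 and 0.025, with means of -1.59 in both.

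Gata4 differed least. Its greatest differences were 0.33 at 100 to 110 kb and -0.23 at 180 to 190 kb, both on the higher side, and on the lower side every window lay between -0.17 and 0.11. At a size of 0.3, 2 runs of positions were higher in EB, 13.3 kb in Gm4151 (chromosome 14, 63342824 to 63356112) and 5.74 kb in the non-coding Gm36165 and Gm46458 (63358508 to 63364246). Their means were 0.65 in ES and 0.98 in EB, and 0.57 and 0.91. The window mean first fell below 0 at 150 kb on the higher side in both stages.

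Several of these regions were local peaks, windows that stand above their neighbours on both sides. A peak was taken from 50 kb outward where its prominence, the height above the higher of the flanking low points, was at least 0.2. Of the 167 windows, the 32 nearer than 50 kb could not count, and neither could the outermost window of each side, which has only 1 neighbour. Among the rest, ES had 3 such windows and EB 8, and 0 were shared at this window width. Peaks this few could fail to coincide by position alone, so the 0 is not read as a result. At Foxa2 the ES peak at 150 to 160 kb and the EB peak at 140 to 150 kb are neighbours on the lower side. Both overlap the non-coding Gm35579, with scores at the respective peaks of 0.094 in ES and 0.47 in EB. In windows of 5 kb no ES maximum overlapped 150 to 160 kb. By single positions, both stages had their greatest score between 140 and 160 kb at the same place, 147.9 kb (0.14 in ES, 0.61 in EB). The offset between the pair thus depends on the window grid, and they are not read as 2 separate peaks.

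The most prominent EB peak was at 140 to 150 kb downstream of T in Pde10a (8573756 to 8583755), with a prominence of 1.05. Among the 42 windows of T it ranked 36th in ES and 7th in EB. At Gata6 the EB peak on the lower side in Gm35814, 150 to 160 kb away (10893622 to 10903621), had a prominence of 0.69 and went from rank 24 of 41 to rank 7. A lesser one at 90 to 100 kb, also in Gm35814 (10953622 to 10963621), had 0.37 and went from rank 20 to rank 12. At Foxa2 the window at 200 to 210 kb had prominences of 0.15 in ES and 0.46 in EB, and at Gata4 that at 90 to 100 kb in Gm4151 had 0.053 and 0.38. In windows of 20 kb prominence was 0.65 at Pde10a and 0.22 and 0.42 at the Foxa2 windows from 200 and 140 kb. At Gata4 no local maximum of that width overlapped 90 to 100 kb. A maximum in the next window outward was not looked for, and EB had 0.98 at 90 to 100 kb and 0.97 at 100 to 110 kb. The remaining EB peaks lay around T, with prominences of 0.40 at 70 to 80 kb downstream (0.21 in windows of 20 kb) and 0.23 at 120 to 130 kb upstream, over Sft2d1, and neither window reached a stage difference of 0.5.

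ES had 2 peaks that were flat in EB. On the higher side of Gata6, 160 to 170 kb away (11213621 to 11223620) and where no gene is annotated, the prominence was 0.83 in ES and 0.0068 in EB, with scores of -0.45 and -1.28. At 150 to 160 kb upstream of T (8273757 to 8283756), between Gm33799 and Mpc1, it was 0.72 in ES. The EB window there was no local maximum, and the scores were -0.033 and -0.82, rank 11 and rank 27 of 42.

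The KO columns, which share no library with the WT columns, were read at the same windows. Apart from the count over all windows below, these were chosen by their WT values. Weaker peaks or smaller differences in KO could follow from that choice alone. At Foxa2 the pair of Gm35579 windows were peaks in KO too, with prominences of 0.38 in ES KO and 0.52 in EB KO. The higher-side peak of Gata6 had a prominence of 0.78 in ES KO and 0.47 in EB KO. The Pde10a window scored -1.54 in ES KO and -1.44 in EB KO and was a local peak in neither. The Gm35814 window at 150 to 160 kb had -0.30 and 0.018 and was likewise no peak. The window upstream of T had -0.48 and -0.13, so there EB was the higher stage in KO. In all, 3 of the 161 windows with KO values (1.86%) reached 0.5. They were neighbours on the higher side of Gata6, from 150 to 180 kb, and lower in EB. There EB minus ES was -0.57, -0.51 and -0.56 in KO, and -0.59, -0.83 and -0.72 in WT. On the lower side of Foxa2, at 190 to 200 and 200 to 210 kb, it was -0.16 and -0.18 in KO. In WT those Foxa2 windows had 0.64 and 0.56. How the columns were scaled is not known, so WT and KO levels are not compared, and the difference between genotypes was not tested.

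**Figure D3:**
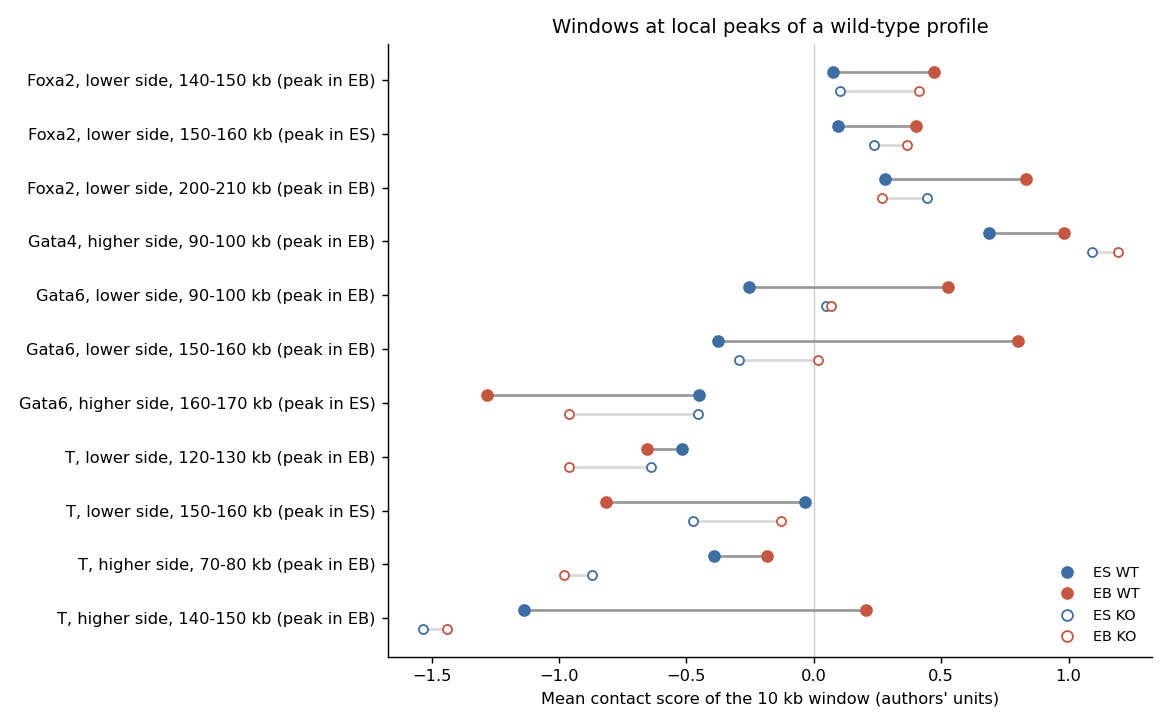
Mean contact score (horizontal axis, authors' units) of the 11 windows that are local peaks of a wild-type profile from 50 kb outward, by stage (blue ES, red EB) and genotype (filled WT, open KO). The longest WT line is the Pde10a window of T, from -1.14 in ES to 0.20 in EB, and the WT lines of Gata6 run in opposite directions on its 2 sides.

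Genes around the viewpoints were read as the mean over their spans, for the 30 genes with at least 10 usable positions. EB minus ES reached 0.5 in 2 of them (6.67%), 1 upward (3.33%) and 1 downward (3.33%). Gm35814 at Gata6 had -0.13 in ES and 0.39 in EB, a difference of 0.51, and Gm33799 at T had -0.29 and -0.89, a difference of -0.59. The median over the 30 spans was -0.027.

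Among the viewpoint genes, T itself (8434423 to 8442496) had 2.55 in ES and 2.77 in EB, and Gata4 (63198914 to 63271712) 2.47 and 2.51. Gata6 (11052510 to 11085636) had 2.18 and 1.99, while Gata6os, a long non-coding RNA whose upper end overlaps the lower end of Gata6, had 2.99 and 3.05. Foxa2 held 1 usable position and has no span value. These spans lie near or around their viewpoints, where the scores of both stages are high.

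Upstream of T, the 8 spans with a value were all lower in EB, on a side whose windows were lower by 0.26 on average. The median over all 30 spans was -0.027. Gm8465 lies inside Gm33799, Gm16702 lies inside T2, and further spans overlap in part, so the 8 are not separate readings. They include Ccr6, a chemokine receptor gene (-0.74 and -1.02), Mpc1, a gene of the mitochondrial pyruvate carrier (-0.26 and -0.73), and Sft2d1 (-0.72 and -0.81), and with T2 (0.85 and 0.70) they reach to 11 kb from the viewpoint. For T2 the difference of medians was -0.035, against -0.15 for the means. Downstream, the covered part of Pde10a had -1.21 and -0.80.

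The 6 protein-coding neighbours of Gata4 with a span value differed by -0.12 to 0.057 between the stages. Neil2, a DNA glycosylase gene, had 0.74 and 0.80, Fdft1, the squalene synthase gene, 0.21 and 0.18, and Ctsb, which encodes the protease cathepsin B, -0.12 and -0.077. On the other side Blk, a kinase gene of B cells, had 0.015 and -0.011, and Fam167a -0.31 and -0.42. The non-coding spans between Gata4 and Blk, Gm4151, Gm36165 and Gm46458, were higher in EB by 0.21, 0.31 and 0.30. At Foxa2, Gm35528 and Gm35579 on the lower side were higher in EB by 0.38 and 0.34, and 9030622O22Rik, which begins 6.4 kb from the viewpoint, had 0.86 and 0.70.

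**Figure D4:**
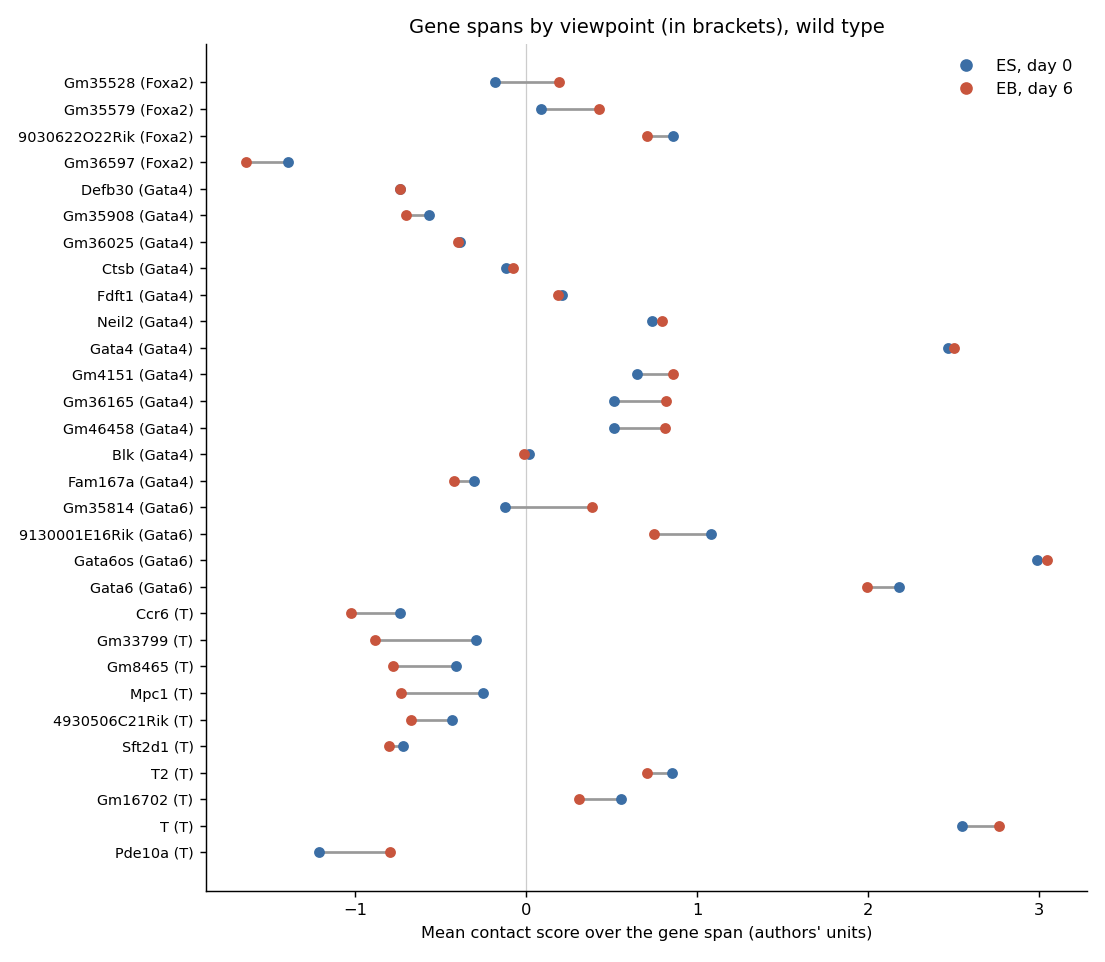
Mean contact score (horizontal axis, authors' units) over the span of each of 30 genes in wild-type ES (blue) and EB (red), grouped by viewpoint. Near Gata4 the stages differ by at most 0.31, and the greatest differences are 0.51 at Gm35814 (Gata6) and -0.59 at Gm33799 (T).

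Start sites were read separately. For 17 genes RefSeq promoter entries place a start with at least 10 usable positions within 5 kb, none of them near Gata6. EB minus ES reached 0.5 at 3 of the 17 (17.6%), about the share of all windows (17.4%). All 3 were lower in EB and upstream of T, inside the runs described above, so they are not separate findings. The start of Gm33799 (8272517) had 0.0023 in ES and -0.95 in EB, a greater difference than over its span. That of Mpc1 (8283787) had -0.15 and -0.76, and that of Gm46592 (8347908) had -0.22 and -0.91. The promoters of Gm33799 and Mpc1 printed above thus flank the ES peak that was flat in EB. Between T and these, the start of Gm16702 (8389468) differed by only -0.031, and that of Gm34036 (8413859) had 1.53 and 1.72. The start of Prr18 had -0.47 and -0.85. The starts of Sft2d1 and 4930506C21Rik lie at nearly the same place and are read away from each other. Both gave -0.57 and -0.66 over 28 positions, in effect 1 reading. At Foxa2 the start of Gm35579 (147900502) had 0.10 and 0.499, and that of 9030622O22Rik 2.54 and 2.45.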

How the data were processed

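The contact scores are the authors' own values, deposited as 1 table per viewpoint with 1 column for each stage and genotype, per the file headers. The unit, log base, smoothing and scaling of the score are not stated by the labels or headers used here, and no counts could be recovered, so depth, intervals and detection floors are not given. The submitters' processing notes name mm10 as the build, with BWA, STAR and deepTools as tools of unstated role. The 4 RNA-seq libraries were not analysed here. Position spacing and scores were read with Python 3.11.15, numpy, pandas and SciPy. Windows of 10 kb, runs of at least 5 neighbouring positions, local peaks and slopes were checked on simulated profiles. The design called for counts per library if the columns held them. They do not, so values are set side by side with a size of 0.5. The gene spans are from RefSeq GRCm38.p6, and genes were named where at least 10 positions fell in the span. Windows were named by greatest difference or as peaks. The loci, lists, size and tests were chosen with earlier results of these data known. Peaks, prominences and start-site windows were added later, with the values in view. The alternatives were other window widths, inner limits, medians, centring, sizes, the positions with all 4 scores, and leaving out loci.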

Additional observations from a re-analysis of the deposited data

Results flagged for a closer look

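In 3 neighbouring windows upstream of T the stage difference had opposite signs in the 2 genotypes, by at least 0.3 score units each way. At 150 to 160 kb it was -0.78 in WT and 0.35 in KO. At 160 to 170 kb it was -0.85 and 0.31, and at 170 to 180 kb -0.34 and 0.33. Each value comes from 1 pooled column per stage, neighbouring windows are not independent, and the difference between the genotypes was not tested.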

How the results depend on the processing

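No paired analysis was possible because the 2 numbered libraries of a group share 1 column, and no replicate could be left out. A value was taken as moved where it differed by over 1.5 times and by at least 0.1 score units, or for a share of windows by over 1.5 times. The 4 contrasts between the sides moved under 0 of 28 alternatives, and 0 called values reversed. Centring is among the 28 but cancels between the sides, so it could not move them. The contrasts of Foxa2, 0.021, and Gata4, -0.052, are smaller in size than the 0.1 needed to count as moved. For them the label says little, as even a change of sign need not count. That of Foxa2 became -0.065 with positions scored in all 4 columns and was not counted. At a size of 0.3 the shares of windows were 37.1% in all, 18.6% higher and 18.6% lower in EB, with Foxa2 at 31.0%, Gata4 at 4.76%, Gata6 at 70.7% and T at 42.9%. At 0.75 they were 7.19%, 4.79%, 2.40%, 0% at Foxa2, 14.6% at Gata6 and 14.3% at T. Without Gata6 they were 9.52%, 4.76% higher and 4.76% lower. Centring gave 3.59% lower in EB. At Foxa2 the share was 1.52% in windows of 5 kb and 0% in windows of 20 kb. The distal contrast of T (windows from 50 kb outward minus nearer ones, EB minus ES), -0.094, became 0.017 without the first 20 kb and 0.21 with distal windows from 100 kb. The slope difference on the higher side of Foxa2, -0.11, became 0.0091 in windows of 20 kb, 0.065 with 2 kb left out and -0.39 with 20 kb left out. That on the higher side of T, 0.63, became 0.37 with 2 kb left out, that on its lower side, -0.42, became -0.13 with 20 kb left out, and that on the higher side of Gata6, -0.15, became -0.26 with positions scored in all 4 columns. Leaving out the equal outer stretches of Gata4, chosen after the values were seen, changed 0 calls. It could not have changed any, because the stages differed there by at most 0.0028, far below every size used. That 0 is therefore not read as a result. Depth, which is unknown, limits all of these values.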

Other observations

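At Gata4 the WT columns of ES and EB became equal at the outer ends. Over 45 positions from 200.6 to 212.6 kb on the lower side they differed by at most 0.0028 while the ES score itself ran from -0.82 to -0.67, and over 8 positions from 218.7 to 222.1 kb on the higher side by at most 0.00090. The span of Defb30, a defensin gene, lies in the first of these stretches, at -0.74 in both stages.

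Single steps of the stage difference also stood out against a smooth background. On the higher side of Foxa2, 155.5 to 155.9 kb away, the EB score went from -1.92 to -1.65 between neighbouring listed positions and the ES score from -1.64 to -1.57, a step of 0.20 where the median step was 0.0030. Beyond it lie the 94 positions where the stages nearly coincide. At Gata4 the greatest steps were 0.14 on each side, 180.9 to 181.2 kb below and 205.7 to 205.9 kb above the viewpoint. At T the last listed position on the lower side, 229.8 kb away, was higher than its neighbour by 0.32 in stage difference. The cause of these steps was not tested.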
